A study of Mus musculus with 21 samples.

Results

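The respiratory chain of mitochondria is a set of protein complexes in the inner membrane, and most of their subunits are encoded in the nucleus. The genes described here were taken by symbol: all genes measured by a probe set of 1 symbol whose name starts with Ndufa, Ndufb, Ndufc, Ndufs, Ndufv, Uqcr, Cox4, Cox5, Cox6, Cox7, Cox8 or Atp5, or that is Sdha, Sdhb, Sdhc or Sdhd. They numbered 90 of the 18194 genes on the array. Where a gene had several probe sets, the one of highest mean signal over the 21 arrays was taken. Complex I had 34 of them, complex II 4, complex III 8, complex IV 19 and complex V 17. The remaining 8 start with Ndufaf, which names assembly factors of complex I and not subunits. They are counted apart where genes are split by complex. Totals, shares and medians given for the respiratory chain genes include them. Of the 90 genes, 84 passed the filter on low signal and were tested. The 6 others were Cox4i2, Cox7a1, Cox7b2, Cox8b, Ndufa4l2 and Ndufb4. Ndufb4 had 1 probe set, which read under the floor of the filter, the table's median signal of 80.6, in all 21 arrays. Cox7b, Ndufa11 and Ndufs6 were not analysed here. Cyc1 of complex III lies outside these symbols and belongs to a list counted further below.

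Complex I takes electrons from NADH, and complex II, the succinate dehydrogenase of the citric acid cycle, takes them from succinate. Both pass them through ubiquinone to complex III and, by cytochrome c, to complex IV, which reduces oxygen, and complex V makes ATP from the proton gradient that results. In macrophages the balance between this chain and glycolysis is known to shift with activation, and succinate oxidation and complex I are known sources of reactive oxygen in activated cells.

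Female C57BL/6 mice of 7 to 8 weeks received 20000000 particles of zymosan, a yeast cell wall preparation, into the peritoneal cavity, and cells were sorted from lavage for expression arrays. The groups after zymosan were Ly-6B+ Ly-6G- monocytes at 4 h, Ly-6B+ or Ly-6B-low Ly-6G- monocytes and macrophages at 18 h, F4/80+ CD11b+ macrophages at 72 h, and, at 168 h, Ly-6B+ macrophages with medium to high F4/80 and Ly-6B- macrophages with high F4/80. From untreated mice came F4/80-high, CD11b-high macrophages resident in the peritoneum, and Ly-6B+ Ly-6G- monocytes of the bone marrow. Each of the 7 groups had 3 arrays, which the labels call biological replicates without saying how many animals each holds.

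Levels are the authors' MAS5 signals, which have no absolute unit and were scaled by the authors to the same trimmed mean of 500 in each array. Array medians ran from 67.3 to 93.0. With 3 arrays a group, precision is limited by their number. The 5 genes of the resident peritoneal macrophage list summed to 97856 to 105868 in resident macrophages and to 182 to 289 in bone marrow monocytes, where Gata6, Timd4, Prg4 and Cxcl13 were under the floor. Of the monocyte list, Ccr2 and Vcan were measured and summed to 37129 to 39825 at 4 h and 10786 to 15724 in bone marrow monocytes. Markers of T and NK cells, of mesothelial cells and of erythroid cells were near or under the floor throughout. Arrays that stood apart were bone marrow replicate 3, with a neutrophil list sum of 202281 against 94769 and 65756 in the other two, 4 h replicate 2, with a resident macrophage list sum of 5513 against 2201 and 2234, and 72 h replicate 2, with a B cell list sum of 7986 against 626 and 715 and a mast cell list sum of 6288 against 331 and 313. Counts are therefore given with and without these 3 arrays. In sorted bulk samples, fewer cells of a type and less RNA per cell cannot be told apart.

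The start regions of 4 of these genes are printed to show an NRF1 match on either strand, a YY1 match and no match, the last in the gene with the largest F described below. NRF1, GABPA and YY1 are factors known to bind promoters of respiratory chain genes. RefSeq start regions on GRCm38.p6, from 250 bases before to 50 after the start, were at hand for 74 of the 90 genes. They were searched on both strands for a 10-base NRF1 motif, a 10-base YY1 motif and CCGGAAG, the core of GABPA and other ETS factors. The sequences run 5′ to 3′ on the gene's own strand, and the capitals mark the NRF1 matches in Sdha and Atp5o and the YY1 match in Ndufs7. Sdha, the flavoprotein subunit of complex II that oxidizes succinate (chr13:74350191-74350490, minus strand), had NRF1 matches at 98, 55 and 10 bases before the start. Atp5o, the stalk subunit of complex V called OSCP (chr16:91931581-91931880, minus strand), had an NRF1 match on the opposite strand at base 10 after the start. Ndufs7, a core iron-sulfur subunit of complex I (chr10:80249199-80249498, plus strand), had a YY1 match at base 25 after the start. Cox7a2l, a relative of complex IV subunit 7A (chr17:83514284-83514583, minus strand), had no match.
Sdha: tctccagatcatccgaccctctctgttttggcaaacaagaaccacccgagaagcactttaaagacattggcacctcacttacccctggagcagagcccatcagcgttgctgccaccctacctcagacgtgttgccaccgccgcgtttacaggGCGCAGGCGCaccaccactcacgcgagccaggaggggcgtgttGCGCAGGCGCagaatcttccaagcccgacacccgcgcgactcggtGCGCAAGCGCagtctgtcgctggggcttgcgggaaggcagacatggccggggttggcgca
Atp5o: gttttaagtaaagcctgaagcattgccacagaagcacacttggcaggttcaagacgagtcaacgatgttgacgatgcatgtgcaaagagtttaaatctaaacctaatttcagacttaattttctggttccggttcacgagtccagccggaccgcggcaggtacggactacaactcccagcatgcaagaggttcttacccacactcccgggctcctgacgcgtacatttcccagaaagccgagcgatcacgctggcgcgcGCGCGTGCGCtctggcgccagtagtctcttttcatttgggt
Ndufs7: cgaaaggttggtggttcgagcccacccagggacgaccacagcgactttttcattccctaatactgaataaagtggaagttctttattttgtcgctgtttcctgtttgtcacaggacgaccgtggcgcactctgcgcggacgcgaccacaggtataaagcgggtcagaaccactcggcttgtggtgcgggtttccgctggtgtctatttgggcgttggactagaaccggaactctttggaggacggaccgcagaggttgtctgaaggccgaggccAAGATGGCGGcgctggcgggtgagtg
Cox7a2l: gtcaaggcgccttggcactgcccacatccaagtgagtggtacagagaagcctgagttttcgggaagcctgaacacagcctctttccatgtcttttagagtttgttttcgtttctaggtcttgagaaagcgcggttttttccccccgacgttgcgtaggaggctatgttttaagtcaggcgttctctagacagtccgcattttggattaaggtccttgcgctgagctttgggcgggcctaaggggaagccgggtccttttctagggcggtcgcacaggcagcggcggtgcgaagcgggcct

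The NRF1 motif was in 17 of the 74 start regions (23.0%), against 11.2% of the 9846 tested genes with a start region and 5.19% of all 27025 start regions of the table. The GABPA core was in 19 (25.7%), against 19.7% of the tested genes and 9.93% of all. The YY1 motif was in 5 (6.76%), against 2.3% and 0.995%. At least 1 of the 3 motifs was in 35 start regions (47.3%), against 29.7% and 14.6%. Median GC content was 58.8% in the respiratory chain genes, 60.3% in the tested genes and 52.8% in all. By complex, a match was found in 12 of 31 start regions of complex I, 3 of 3 of complex II, 3 of 5 of complex III, 3 of 13 of complex IV and 10 of 15 of complex V, and in 4 of 7 of the assembly factors. A match is a run of letters and was not tested as a binding site.

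Most of these genes had group means within 1 log2 unit of each other. Differences were tested on log2(signal + 15) with limma over all 21 arrays, and a gene is called where its Benjamini-Hochberg adjusted p over all 12169 genes tested is under 0.05. The F test over the 7 groups called 38 of the 84 genes, against 69.8% of all genes tested. In each array the median log2(signal + 15) of the respiratory chain genes was above that of all genes tested, by 2.16 to 3.30. Without matching for this level, the range of the 7 group means had a median of 0.57 (log2) in the respiratory chain genes and of 1.04 in all genes tested. It was under 1 in 74 of the 84, and reached 2 in Cox6b2 alone, a testis isoform of complex IV subunit 6B that was near the floor. Cox6b2 passed the filter only through its 3 bone marrow arrays. The group mean was highest at 18 h in 29 genes and in bone marrow monocytes in 25. It was lowest in the Ly-6B+ macrophages of 168 h in 27 and at 4 h in 25. These counts are on the deposited scale and were not set beside those of all genes tested, so they cannot show a pattern particular to these genes. No gene was called lower in these Ly-6B+ cells than in Ly-6B- macrophages of 168 h or resident macrophages. The map of group means shows no column in which all genes are high or low.

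**Figure D1:**
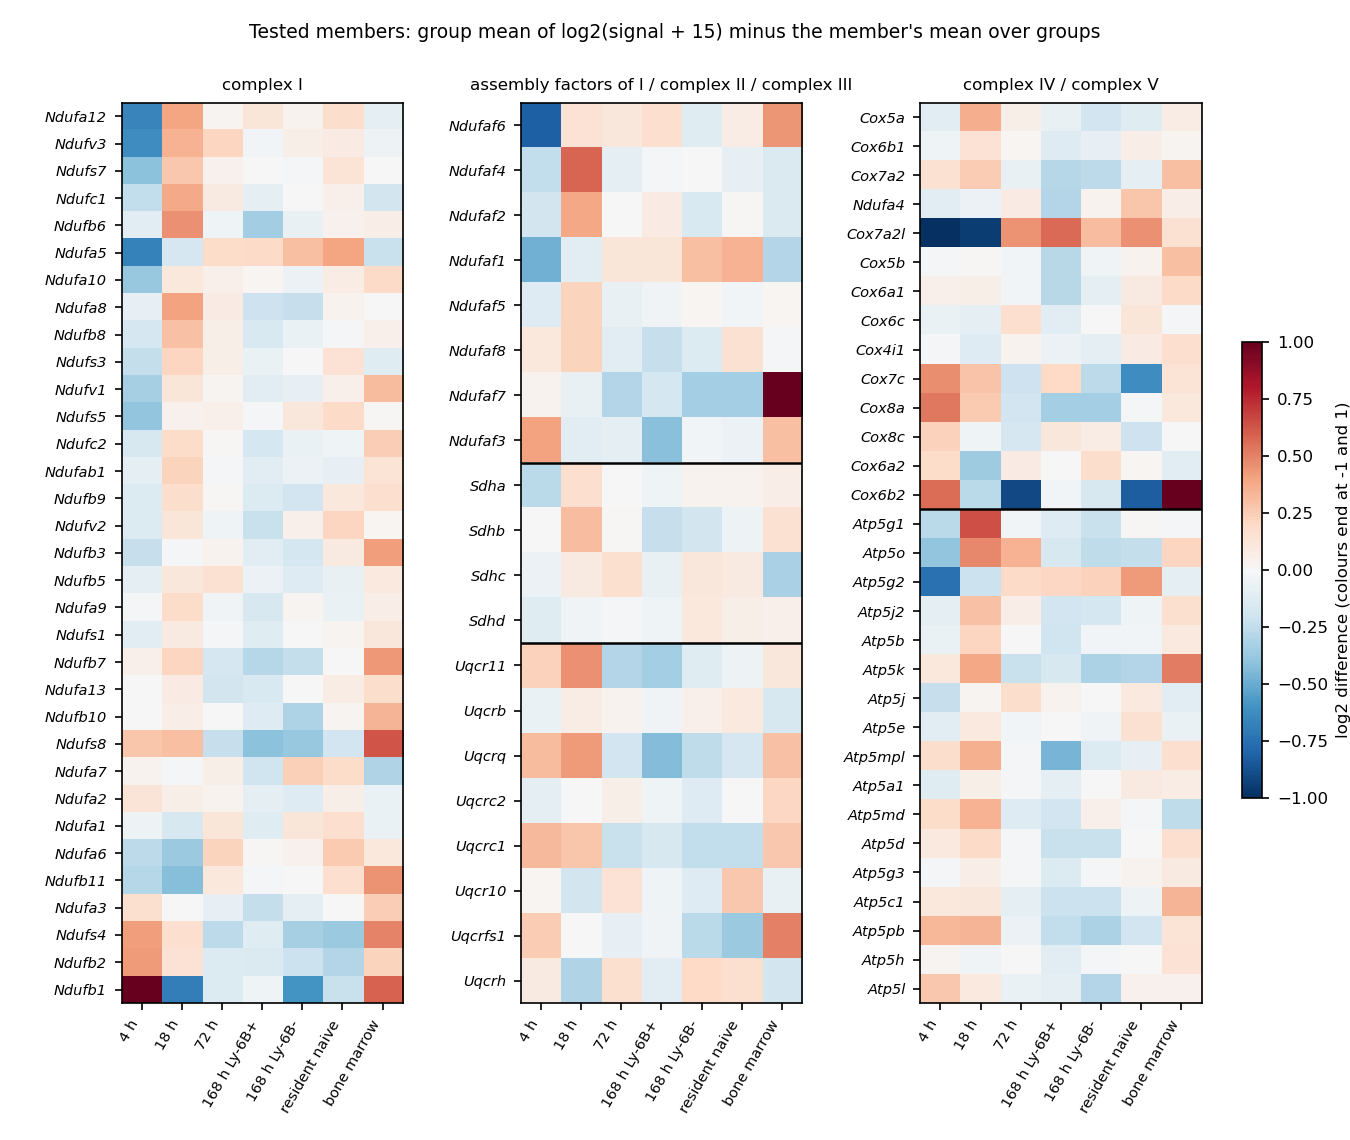
Each row is 1 of the 84 tested genes and each column 1 of the 7 groups. Colour is the group mean of log2(signal + 15) of 3 arrays minus the gene's mean over the groups, in log2 units, with colours ending at -1 and 1. Cox7a2l stands out with low values at 4 h and 18 h, and Ndufaf7 and Cox6b2 with high values in bone marrow monocytes.

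Cox7a2l had the largest F of all 84 genes (adjusted p = 1.39e-09, limma). Its protein is known to join complexes III and IV into a larger assembly, and C57BL/6 mice carry a shortened form of it. Its signal was 4501, 4798 and 5798 at 4 h and 5436, 4322 and 5909.7 at 18 h. It was 12921, 12693 and 15537 at 72 h. At 168 h it was 14777, 13533 and 16266 in Ly-6B+ cells, and Ly-6B- cells had 12279.5, 10564 and 14642. It was 13725, 11975 and 15689.9 in resident macrophages and 11301, 11125 and 10935 in bone marrow monocytes. All 6 arrays of 4 h and 18 h lay below all 15 others. The change at 4 h against bone marrow monocytes was -1.15 ± 0.14 on the log2 scale (SE, adjusted p = 8.55e-07, limma), and that at 72 h against 18 h was 1.40 ± 0.14 (adjusted p = 1.84e-07, limma). The other 2 probe sets of the gene gave -1.12 and -1.24 for the first and 1.37 and 1.68 for the second. At 18 h against 4 h the change was 0.05 ± 0.14 (adjusted p = 0.820, limma).

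**Figure D2:**
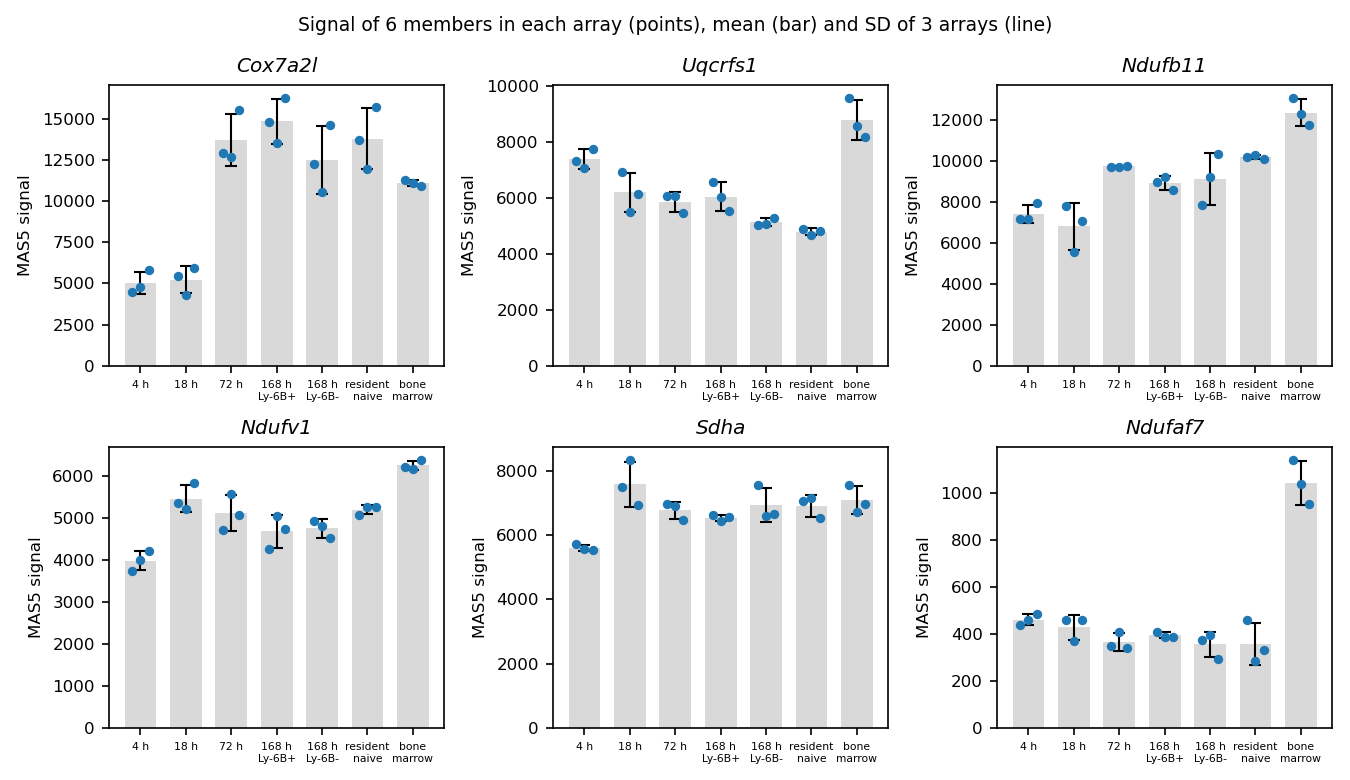
MAS5 signal of 6 genes in each array, with points for arrays, grey bars for the mean and lines for the SD of 3 arrays, from 4 h on the left to bone marrow monocytes on the right. The 6 Cox7a2l points of 4 h and 18 h lie between 4322 and 5910, and all others between 10564 and 16266. The 3 Ndufaf7 points of bone marrow monocytes lie between 954 and 1142, above all others.

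In monocytes of 4 h set against bone marrow monocytes, 0 of the 84 genes were called higher and 16 lower, against 16.5% and 30.1% of all genes tested. At an unadjusted p under 0.05, 1 gene was higher and 20 were lower, against 18.6% and 33.0% of all genes tested. The median change was -0.16 in the respiratory chain genes and -0.14 in all genes tested. Complex I held 8 of the 16 genes that fell, and complexes II and III held 1 each. Complex IV held 2, complex V 2 and the assembly factors 2.

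Ndufv1, the flavoprotein of complex I that takes electrons from NADH, had signals of 3743, 3997 and 4208 at 4 h, against 6214, 6160.4 and 6374 in bone marrow monocytes. Ndufb11, an X-linked subunit of the membrane arm of complex I, had 7164, 7173 and 7939 at 4 h, against 13081, 12272 and 11743 in bone marrow monocytes. Neither gene overlapped between the groups. Here and below, genes with the largest called changes were named only where arrays did not overlap. Lack of overlap in those genes is therefore no further support. Ndufv1 fell by 0.65 and Ndufb11 by 0.73 on the log2 scale (adjusted p = 6.11e-06 and 1.60e-05, limma). Sdha had 5722, 5562 and 5526 at 4 h, against 7562, 6726 and 6979 in bone marrow monocytes, and fell by 0.34 (adjusted p = 0.00372, limma). Of its other probe sets, one of high signal gave -0.77 and one near the floor gave 0.62. Uqcrfs1, the Rieske iron-sulfur protein of complex III, averaged 7377 ± 349 at 4 h and 8769 ± 718 in bone marrow monocytes (SD, n = 3 each). Its fall of 0.25 was close to the threshold (adjusted p = 0.0462, limma). Cox5b, a matrix-side subunit of complex IV, averaged 13785 ± 2096 at 4 h and 17027 ± 291 in bone marrow monocytes, and its fall of 0.32 was close to the threshold too (adjusted p = 0.0487, limma). Atp5g2, which encodes the c-ring subunit of complex V, had 1044, 1415 and 1384 at 4 h, against 1897, 2143 and 2020.0 in bone marrow monocytes, and fell by 0.66 (adjusted p = 0.0225, limma), a call lost in 6 of 19 alternative settings. No array of these genes overlapped between the groups.

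Ndufaf6 and Ndufaf7 were the assembly factors that fell. Ndufaf6 had 108, 128 and 119.9 at 4 h, against 319.8, 296 and 294 in bone marrow monocytes, a change of -1.26 ± 0.18 (SE, adjusted p = 5.59e-06, limma). Ndufaf7 had 441, 461 and 485 at 4 h, against 1142, 1038 and 954 in bone marrow monocytes, a change of -1.15 ± 0.16 (adjusted p = 4.94e-06, limma).

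The counts at 4 h depended on how the arrays were scaled. With all arrays brought to a common median, the median change of all genes tested was 0.23 and not -0.14, and 19 genes were called higher and 5 lower, against 31.4% and 18.1% of all genes tested under that scaling. With quantile normalization 5 were higher and 24 lower, against 22.5% and 23.0% of all genes tested. Relative to the median of all genes tested, the median of the respiratory chain genes was -0.02 as deposited and -0.27 with quantile normalization. The common median shifts all genes of a comparison alike, so it cannot change this value. Genes called lower under the common median were Cox7a2l, Ndufaf6, Ndufaf7, Ndufb11 and Ndufv1, and they were lower under each of these scalings. Under the common median the change of Cox5b was 0.049, that of Sdha 0.028 and that of Uqcrfs1 0.12, so no direction holds for these 3 genes. Markers of other cells moved with this comparison as well. The 9 neutrophil markers summed to 15809 to 16324 at 4 h and 65756 to 202281 in bone marrow monocytes, with 6 lower and 1 higher. The 5 progenitor markers summed to 1111 to 1391 at 4 h and 33185 to 87092 in bone marrow monocytes, with all 5 lower, and all 13 proliferation genes were lower at 4 h (median -5.69). No neutrophil or progenitor marker was under the floor in all 3 bone marrow arrays, and the part of these cells in the falls was not tested. Without the 3 arrays that stood apart, 0 genes were called higher and 11 lower. Without 4 h replicate 1, 10 were called lower. Shares of all genes tested are not given for the counts with arrays left out.

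**Figure D3:**
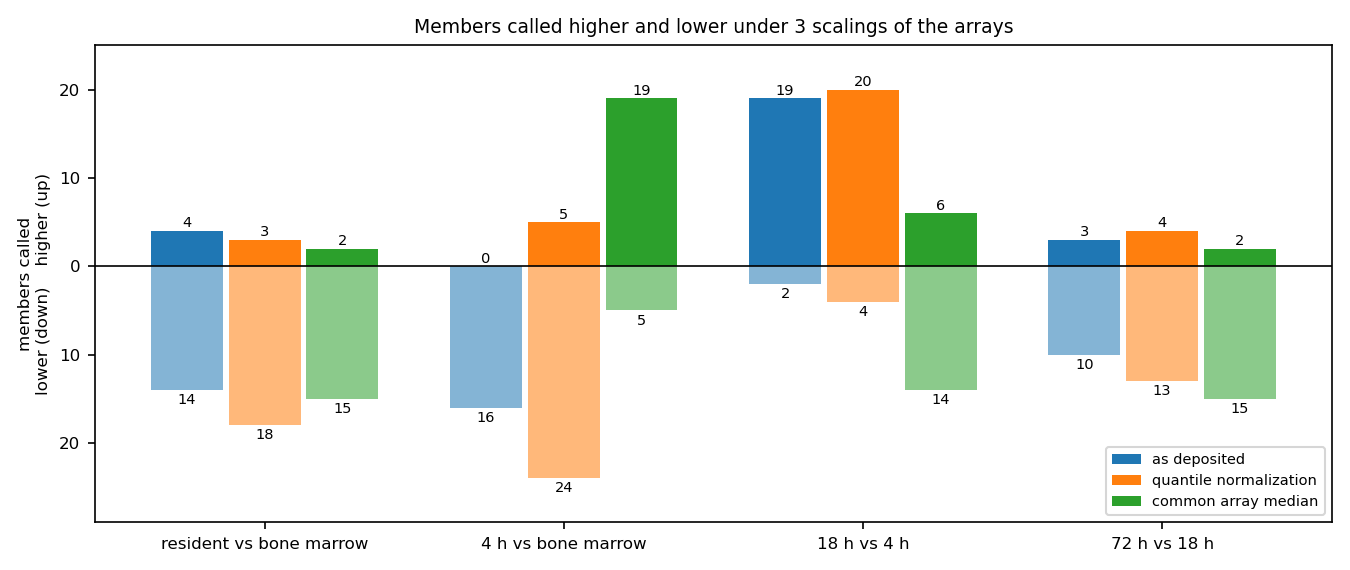
Bars give the number of the 84 genes called higher (up) and lower (down) at an adjusted p under 0.05 in 4 comparisons, for the deposited scale, quantile normalization and a common array median. For 4 h against bone marrow monocytes the counts are 0 higher and 16 lower, 5 and 24, and 19 and 5. For 18 h against 4 h they are 19 and 2, 20 and 4, and 6 and 14. Shares of all genes tested for these comparisons are given in the text.

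At 18 h, 19 of the 84 genes were called higher than at 4 h and 2 lower, against 27.5% and 12.5% of all genes tested. The comparison shares the 4 h arrays with the previous one and enters them with opposite sign. Complex I held 11 of the genes that rose and the assembly factors 4. Complexes II and IV held 1 each, complex V 2 and complex III 0. The median change was 0.15 in the respiratory chain genes and 0.14 in all genes tested.

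Ndufv3, a subunit of the NADH module of complex I, had 3827, 3548 and 5035 at 18 h, against 1983, 1929.8 and 2333 at 4 h. Ndufa12, an accessory subunit, had 5309, 4203 and 8068 at 18 h, against 2456, 2714 and 2992 at 4 h. The groups did not overlap in either gene, and the changes were 0.97 ± 0.17 and 1.05 ± 0.19 (SE, adjusted p = 8.29e-05 and 1.70e-04, limma). The Ndufa12 probe set is of a class that can match other transcripts, and the gene's probe set outside that class gave 0.26 and no call. Sdha had 7491, 8339 and 6933 at 18 h, against 5722, 5562 and 5526 at 4 h, a rise of 0.43 (adjusted p = 5.67e-04, limma). Cox5a, a matrix-side subunit of complex IV, averaged 17392 ± 1541 at 18 h and 12581 ± 966 at 4 h (SD, n = 3 each), a rise of 0.47 (adjusted p = 6.89e-04, limma). Atp5o had 5372, 5306 and 6438 at 18 h, against 2656, 2922 and 3794 at 4 h, with no overlap and a rise of 0.88 (adjusted p = 0.00144, limma). Atp5g1, another gene of the c-ring subunit, averaged 1444 ± 266 at 18 h and 766 ± 165 at 4 h, a rise of 0.91 (adjusted p = 0.0189, limma). The Atp5g1 call was lost in 6 of 19 alternative settings, both other scalings and the leaving out of 4 h replicate 1 or 18 h replicate 3 among them, with a lowest change of 0.36. The Atp5o call was lost with the Gapdh ratio in the model, where the change was 0.38.

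Among the assembly factors, Ndufaf4 had 1568, 1612 and 1633 at 18 h, against 934, 891 and 853 at 4 h. Ndufaf6 had 234, 284 and 218 at 18 h, against 108, 128 and 119.9 at 4 h. Both groups were apart in each gene, and the rises were 0.84 and 0.96 (adjusted p = 2.01e-04 and 1.87e-04, limma). The 2 genes that fell were Ndufb1 and Uqcrfs1. Ndufb1, a small subunit of the membrane arm, had 209, 208 and 220.1 at 18 h, against 668, 678 and 1021 at 4 h, a change of -1.80 ± 0.24 (SE, adjusted p = 5.42e-06, limma). Ndufb1 ran against the 11 genes of complex I that rose. Uqcrfs1 averaged 6189.7 ± 709.8 at 18 h and 7377 ± 349 at 4 h, and its fall of 0.26 (adjusted p = 0.0429, limma) lost its call in 11 of 19 alternative settings.

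Scaling mattered here too. With a common array median, the median change of all genes tested was -0.16 and not 0.14, and 6 genes were called higher and 14 lower, against 16.0% and 24.1% of all genes tested under that scaling. The 6 were Atp5o, Ndufa12, Ndufaf4, Ndufaf6, Ndufc1 and Ndufv3, and Ndufb1 was lower under this scaling as well. Sdha and Cox5a kept their sign and lost their call under it. With quantile normalization 20 were higher and 4 lower, against 20.6% and 16.1%. Relative to all genes tested, the median of the respiratory chain genes was 0.02 as deposited and 0.16 with quantile normalization. Here too the common median cannot change this value. The ratio of the 3′ to the 5′ Gapdh control signal, a measure of RNA quality, was 0.80, 0.72 and 1.08 (log2) at 18 h, against 1.43, 1.30 and 1.36 at 4 h. With this ratio in the model, 10 genes were called higher and 5 lower, against 20.5% and 10.3% of all genes tested, and the median of the respiratory chain genes relative to all genes was -0.12. Without the 3 arrays that stood apart, 15 were higher and 1, Ndufb1, was lower, given here without the shares of all genes tested.

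Markers of other cells moved between 18 h and 4 h as well. The 9 neutrophil markers summed to 2640.5 to 3529 at 18 h and 15809 to 16324 at 4 h, with 4 lower and 0 higher, and Camp and Cxcr2 were under the floor in all 18 h arrays. The 5 resident macrophage markers summed to 4945 to 7473 at 18 h and 2201 to 5513 at 4 h, with 3 higher and 0 lower. Of 13 proliferation genes, 7 were higher and 1 lower at 18 h, with sums of 13340 to 14450.3 at 18 h and 10583 to 12065 at 4 h. The part of these in the rises was not tested.

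At 72 h against 18 h, 3 genes were called higher and 10 lower, against 17.5% and 13.0% of all genes tested. The median change was -0.15 in the respiratory chain genes and 0.03 in all genes tested. Those that rose were Cox7a2l, Ndufb11 and Uqcrh, the hinge protein of complex III, and those that fell included 3 each of complexes I and III. Complex V held 2 of the genes that fell, and complex IV and the assembly factors held 1 each.

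Ndufb11 had 9719.8, 9722 and 9753 at 72 h, against 7803, 5536 and 7091 at 18 h, with no overlap and a rise of 0.53 (adjusted p = 0.00110, limma). Atp5pb, the stalk subunit b of complex V, had 11665, 11922 and 10557 at 72 h, against 15294, 16342 and 13572 at 18 h, also with no overlap. It fell by 0.40 (adjusted p = 0.00339, limma). Atp5mpl, a small membrane subunit of complex V, had 1985, 2432 and 2527 at 72 h, against 3001, 2811 and 3162 at 18 h. Its change of -0.37 (adjusted p = 0.036, limma) lost its call in 5 of 19 alternative settings. Ndufaf4 had 1251, 852 and 920.1 at 72 h, against 1568, 1612 and 1633 at 18 h. The lowest array of 18 h was above the highest of 72 h, and the gene fell by 0.68 (adjusted p = 0.00192, limma). Uqcrq, a small subunit of complex III, averaged 1385 ± 87.0 at 72 h and 2154 ± 412 at 18 h, a fall of 0.61 (adjusted p = 0.0135, limma). With the mean over its probe sets the change was 0.037, so the direction rests on the probe set. Uqcrc1, a core protein of complex III, averaged 3712 ± 156 at 72 h and 5299.9 ± 792 at 18 h, a fall of 0.50 (adjusted p = 0.0283, limma) that lost its call in 6 of 19 alternative settings. Ndufs4, a subunit of the NADH module, and Ndufb6, of the membrane arm, fell by 0.43 and 0.50 (adjusted p = 0.0120 and 0.00756, limma).

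The number of genes called lower at 72 h changed with the 18 h arrays used. It was 6 without 18 h replicate 1, 18 without replicate 2 and 4 without replicate 3. With a common array median, the median of all genes tested was -0.09. Under it 2 genes were called higher and 15 lower, against 14.2% and 18.3% of all genes tested. Without the 3 arrays that stood apart, 2 were higher and 5 lower. With the Gapdh ratio in the model, 5 were higher and 5 lower, and the ratio was 1.30, 0.99 and 1.02 (log2) at 72 h. Leaving out arrays or adding the ratio can change the calls of all genes tested, whose shares are not given for these counts. The counts are therefore not read as a result about the respiratory chain genes. Cox7a2l and Ndufb11 were higher, and Ndufaf4 and Atp5pb lower, in each alternative setting run. The 5 resident macrophage markers summed to 61685 to 86762 at 72 h and 4945 to 7473 at 18 h, with all 5 higher. Of 13 proliferation genes 11 were higher and 0 lower at 72 h (median 3.40). The part of either in the changes of the respiratory chain genes was not tested.

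Resident macrophages and bone marrow monocytes both came from untreated mice. In resident macrophages 4 genes were called higher and 14 lower, against 25.3% and 22.2% of all genes tested. The median change was -0.09 in the respiratory chain genes and 0.05 in all genes tested. Of the genes that were lower, 6 were in complex I, 3 in complex III and 2 each in complexes IV and V. The last was the assembly factor Ndufaf7. Of those that were higher, 2 were in complex I and 1 in complex III, and the other was the assembly factor Ndufaf1.

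Uqcrfs1 had 4893, 4656 and 4798 in resident macrophages, against 9565, 8572 and 8170.2 in bone marrow monocytes. Ndufs8, a core iron-sulfur subunit of complex I, had 3818, 3964 and 4078 in resident macrophages, against 7324, 7095 and 6577 in bone marrow monocytes. The groups were far apart in both genes, with changes of -0.87 ± 0.10 and -0.82 ± 0.18 (SE, adjusted p = 3.23e-07 and 8.17e-04, limma). Ndufs4 had 1591, 1665 and 1449 in resident macrophages, against 2887, 3212 and 2524 in bone marrow monocytes, a change of -0.86 (adjusted p = 8.06e-06, limma). Of its other 3 probe sets, all of lower signal, 2 gave -0.76 and -1.38 and 1 gave 0.58. Ndufaf7 had 459, 286 and 330.5 in resident macrophages, against 1142, 1038 and 954 in bone marrow monocytes, a change of -1.53 ± 0.16 (adjusted p = 1.08e-07, limma). In all 18 arrays of the other groups Ndufaf7 was lower than in any bone marrow array. Cox6b2 had 7.69, 16.6 and 8.99 in resident macrophages, against 142, 114 and 124 in bone marrow monocytes (change -2.45, adjusted p = 1.32e-04, limma). The resident values are under the floor of 80.6, so the fold depends on the 15 that was added. Cox6b2 was above the floor in 3 of 21 arrays, those of bone marrow monocytes, and passed the filter only through them. Its test is therefore no support for the difference.

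Ndufaf1 went the other way, with 683, 686 and 659 in resident macrophages, against 422, 443 and 425 in bone marrow monocytes. Its arrays agreed closely within each group, and the gene was higher by 0.63 ± 0.12 (SE, adjusted p = 2.60e-04, limma). Ndufa5, an accessory subunit of complex I, had 2786, 3144 and 3634 in resident macrophages, against 1816, 2095 and 2319 in bone marrow monocytes, a change of 0.61 (adjusted p = 0.0118, limma). Ndufa7 and Uqcrb were higher by 0.49 and 0.25 (adjusted p = 0.0289 and 0.0476, limma). Those calls were lost in 8 and 10 of 19 alternative settings. With a common array median, 2 genes were called higher and 15 lower, against 23.3% and 23.6% of all genes tested. Without the 3 arrays that stood apart, 3 were higher and 11 lower. The number higher was 1 without bone marrow replicate 1. For the counts with arrays left out, shares of all genes tested are not given. The neutrophil markers summed to 6513 to 6728 in resident macrophages, with 7 of 9 lower than in bone marrow monocytes and 1 higher, and all 5 progenitor markers and all 13 proliferation genes were lower too. S100a9, Camp, Ltf and Cxcr2 were under the floor in resident macrophages, and the part of these cells in the differences was not tested.

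**Figure D4:**
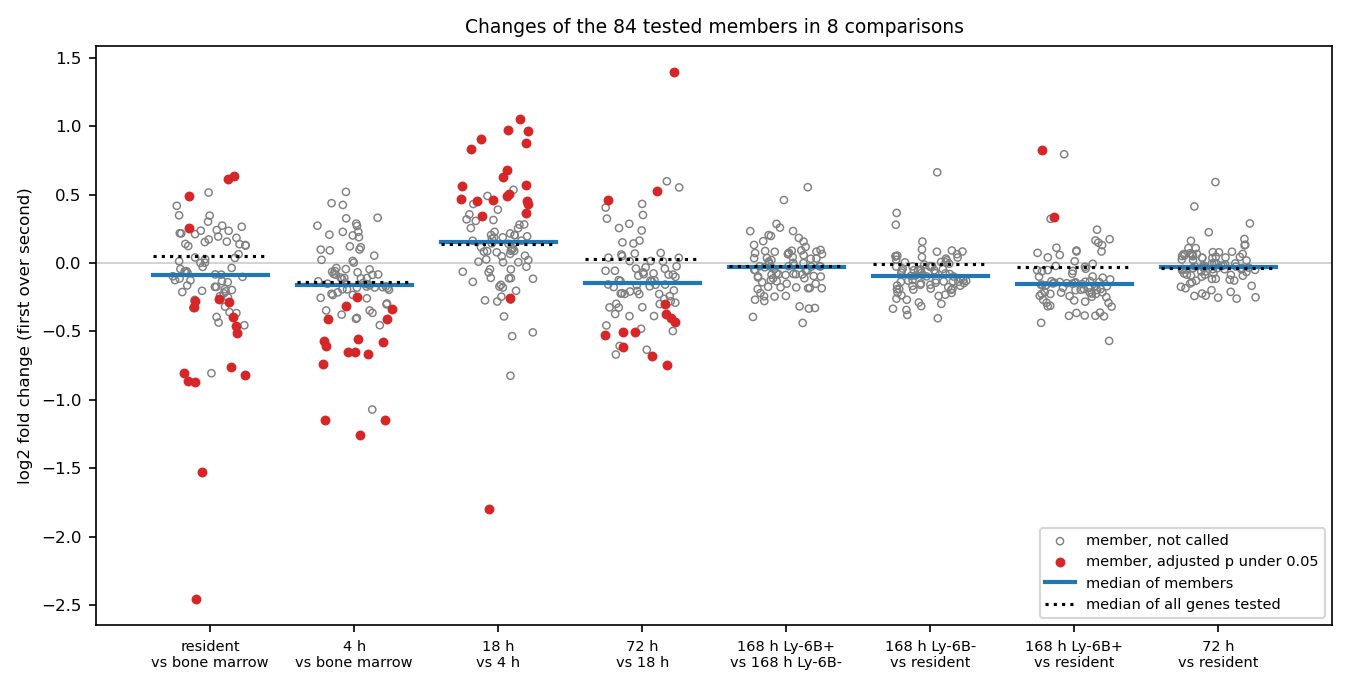
Points are the log2 fold changes of the 84 tested respiratory chain genes (members in the legend) in 8 comparisons, the first-named group over the second. Red points have an adjusted p under 0.05, blue lines are the medians of these genes and dotted lines those of all genes tested. In the 4 comparisons on the left the genes called higher and lower number 4 and 14, 0 and 16, 19 and 2, and 3 and 10, against shares of all genes tested of 25.3% and 22.2%, 16.5% and 30.1%, 27.5% and 12.5%, and 17.5% and 13.0%. The 4 on the right hold 2 called genes in all.

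At 168 h no gene of the chain was called between the Ly-6B+ and Ly-6B- macrophages. Of 84 genes, 0 were called higher and 0 lower in the Ly-6B+ cells, against 3.55% and 4.61% of all genes tested. At an unadjusted p under 0.05, 2 were higher and 3 lower, against 9.9% and 10.8% of all genes tested. The median change was -0.03, and -0.02 in all genes tested. Same-numbered arrays of these 2 groups deviated together, and with the replicate number as a block 0 genes were higher and 1, Ndufa1, was lower. Ndufa1, an X-linked subunit of complex I singled out after its values were seen, had a change of -0.24 ± 0.11 without the block (SE, adjusted p = 0.212, limma). The largest rise was that of Ndufb1, with 292, 415 and 323 in Ly-6B+ macrophages, against 209, 295 and 189 in Ly-6B- macrophages, and it did not pass (log2 change 0.55, adjusted p = 0.188, limma). The 5 resident macrophage markers had sums of 36399 to 43887 in Ly-6B+ and 90040 to 103339 in Ly-6B- macrophages, and 4 of 5 lower in the Ly-6B+ cells.

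Against resident macrophages of untreated mice, the Ly-6B- macrophages of 168 h had 0 genes called higher and 0 lower, against 0.0411% and 0.00822% of all genes tested. At an unadjusted p under 0.05, 0 were higher and 1 was lower, against 2.05% and 1.5% of all genes tested. The Ly-6B+ macrophages of 168 h had 2 genes called higher and 0 lower than resident macrophages, against 4.19% and 4.93% of all genes tested. At an unadjusted p under 0.05, 2 were higher and 8 lower, against 9.89% and 11.7% of all genes tested. Cox7c, a small subunit of complex IV, had 595, 491 and 556 in the Ly-6B+ macrophages, against 357, 242 and 315 in resident macrophages, with no overlap and a change of 0.83 ± 0.23 (SE, adjusted p = 0.0253, limma). The Cox7c probe set is of a class that can match other transcripts. Uqcrfs1 had 6572, 6028 and 5525 in the Ly-6B+ macrophages, against 4893, 4656 and 4798 in resident macrophages, a change of 0.33 (adjusted p = 0.0376, limma). Neither call held in all settings, and without Ly-6B+ replicate 1, resident replicate 2 or resident replicate 3 no gene was called higher. The macrophages of 72 h had 0 genes called higher and 0 lower than resident macrophages, against 1.05% and 0.0986% of all genes tested, with 2 higher and 0 lower at an unadjusted p under 0.05, against 6.1% and 4.65%. These comparisons share the resident arrays, and a difference that misses the threshold does not show that the groups are alike.

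**Figure D5:**
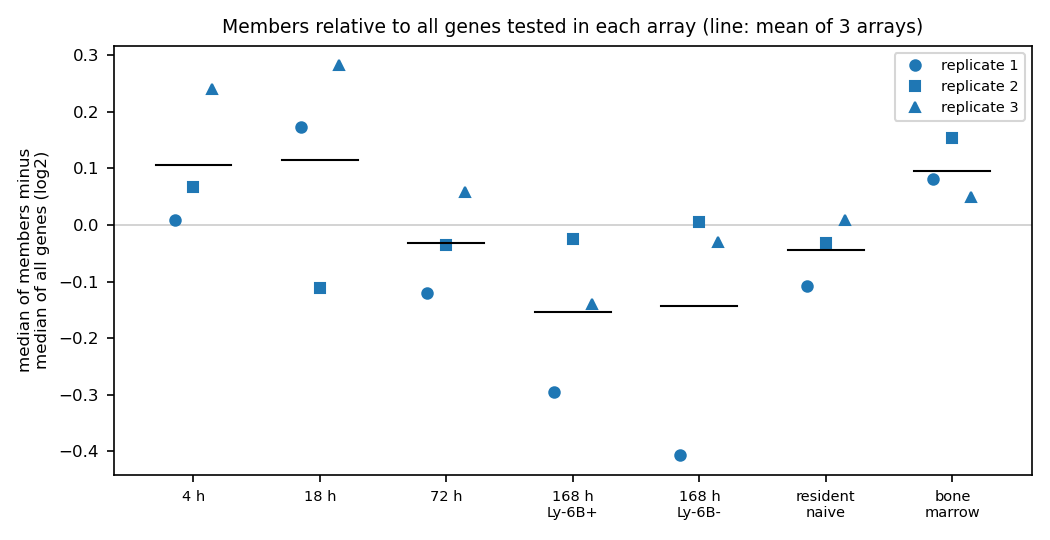
For each array, the median of the 84 genes minus the median of all genes tested, both after each gene was centred on its mean over the 21 arrays (log2). Symbols mark replicate numbers and lines the mean of 3 arrays. The lowest arrays are replicate 1 of both groups of 168 h, at -0.29 for the Ly-6B+ cells and -0.41 for the Ly-6B- cells, and the highest is 18 h replicate 3 at 0.28.

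Arrays of one group differed in the level of these genes as a whole. After each gene was centred on its mean over all arrays, the median of the respiratory chain genes minus that of all genes tested was 0.17, -0.11 and 0.28 in the 3 arrays of 18 h. At 168 h it was -0.29, -0.03 and -0.14 in the Ly-6B+ cells. The Ly-6B- cells had -0.41, 0.01 and -0.03, and replicate 1 was the lowest array of both groups. Without both arrays numbered 1, the counts of the Ly-6B+ against the Ly-6B- macrophages were 0 and 0, and those of the Ly-6B+ against resident macrophages 0 and 0.

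Of the 4 subunits of complex II, Sdha was called in the F test (adjusted p = 0.00822, limma) and so was Sdhb, the iron-sulfur subunit (adjusted p = 0.0408), with group means of Sdhb from 4311 in Ly-6B+ macrophages of 168 h to 6319 at 18 h. The membrane anchors Sdhc and Sdhd did not pass (adjusted p = 0.406 and 0.864, limma). Sdhb, Sdhc and Sdhd had no call in any of the 8 comparisons.

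The paired isoforms of complex IV are known to differ between tissues, with ubiquitous and restricted members. The ubiquitous isoforms Cox4i1, Cox6a1, Cox6b1, Cox7a2 and Cox8a were tested and had no call in any of the 8 comparisons. Group means of Cox4i1 ran from 13662 at 18 h to 16607 in bone marrow monocytes. Of the isoforms known from heart and muscle, Cox7a1 and Cox8b did not pass the filter and Cox6a2 had group means of 106 at 18 h to 159 at 4 h. Cox7a1 was above the floor in 2 of 21 arrays, both of 18 h. The testis isoform Cox8c had no call either. Ndufa4, first assigned to complex I and now to complex IV, had 1754, 2972 and 2545 in Ly-6B+ macrophages of 168 h, against 2983, 3647 and 4008 in resident macrophages, with no overlap but no call (log2 change -0.57, adjusted p = 0.0756, limma).

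Of the 84 genes, 51 had further probe sets, 89 in all, of which 79 probe sets of 48 genes passed the filter on low signal and are compared here. For genes called at 18 h against 4 h, 20 of 20 further probe sets had the sign of the first. The counts were 19 of 20 at 72 h against 18 h, 18 of 21 at 4 h against bone marrow monocytes and 23 of 26 in resident macrophages against bone marrow monocytes.

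Genes that work beside the chain were counted in lists chosen when earlier results of these data were known. The shares of all genes tested that were called higher and lower were 16.5% and 30.1% at 4 h against bone marrow monocytes and 27.5% and 12.5% at 18 h against 4 h. They were 17.5% and 13.0% at 72 h against 18 h, and 25.3% and 22.2% in resident macrophages against bone marrow monocytes. These shares stand beside the counts of every list below. In the citric acid cycle list of 15 genes, 0 rose and 7 fell in 4 h monocytes set against those of the bone marrow, led by Idh2, the mitochondrial isocitrate dehydrogenase that makes NADPH (log2 change -1.57), and Fh1, fumarase (-1.09). At 18 h against 4 h, 7 were higher and 0 lower, with Idh2 at 1.47 and Suclg2, a succinyl-CoA ligase subunit, at 1.29. The list had 1 higher and 5 lower at 72 h against 18 h, and 2 higher and 6 lower in resident macrophages against bone marrow monocytes.

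A list of complex III, cytochrome c, ubiquinone synthesis and electron transfer genes outside the symbols above had 12 genes tested. It was drawn up to include Cyc1 of complex III. Of the 12, 0 were higher and 7 lower at 4 h, and 8 were higher and 0 lower at 18 h against 4 h. The counts were 1 and 3 at 72 h against 18 h, and 3 and 3 in resident macrophages against bone marrow monocytes. Coq9, needed to make ubiquinone, changed by -1.12 at 4 h and 1.15 at 18 h against 4 h. Cycs, cytochrome c, was lower in resident macrophages than in bone marrow monocytes (-1.04) and lower at 72 h than at 18 h (-0.79, adjusted p = 6.48e-04, limma), and this is the highest adjusted p among the changes named for single genes of these lists. Of 13 genes of cytochrome oxidase assembly, 2 were higher and 3 lower at 4 h, and 5 higher and 1 lower at 18 h against 4 h, with Cox17, a copper chaperone, at 1.04 in 4 h monocytes. That list had 0 higher and 1 lower at 72 h against 18 h, and 1 and 1 in resident macrophages against bone marrow monocytes.

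Of 14 genes of mitochondrial biogenesis and mtDNA expression, 1 was higher and 8 were lower at 4 h, and 6 were higher and 0 lower at 18 h against 4 h. Ppargc1b, a coactivator of respiratory genes, changed by -1.82 at 4 h and 2.51 at 18 h against 4 h, and Tfb1m, an rRNA methyltransferase of mitochondria, by -1.65 and 1.47. The 76 genes of mitochondrial ribosomal proteins counted 2 rises and 25 falls in 4 h monocytes, with 26 rises and 2 falls at 18 h against 4 h. At 72 h against 18 h the biogenesis list had 0 higher and 3 lower and the ribosomal list 2 and 8. In resident macrophages against bone marrow monocytes they had 2 and 3, and 6 and 15. Of 6 genes of uncoupling and carriers, 0 were higher and 3 lower at 4 h, and 3 were higher and 0 lower at 18 h against 4 h. Median changes at 4 h were -0.16 in the citric acid cycle list, -0.44 in the electron carrier list, -0.14 in the assembly list, -0.50 in the biogenesis list, -0.28 in the carrier list and -0.27 in the ribosomal list, against -0.14 in all genes tested.

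The balance in these lists depended on the scaling too, as alternatives chosen after seeing the data showed. With a common array median, counts higher and lower at 4 h against bone marrow monocytes were 5 and 5 for the citric acid cycle, 2 and 3 for the electron carriers, 4 and 0 for cytochrome oxidase assembly, 3 and 3 for biogenesis, 1 and 2 for the carriers and 18 and 12 for the ribosomal genes, against 31.4% and 18.1% of all genes tested. At 18 h against 4 h they were 3 and 3, 4 and 1, 1 and 1, 2 and 1, 1 and 0, and 12 and 9 in the same order, against 16.0% and 24.1%. Idh2, Coq9, Ppargc1b and Tfb1m kept their sign and their call in both comparisons under that scaling, as did Fh1 and Cox17 at 4 h against bone marrow monocytes and Suclg2 at 18 h against 4 h. Under quantile normalization, counts for 4 h against bone marrow come first and those for 18 h against 4 h second. The citric acid cycle had 1 and 7, then 10 and 0, and the electron carriers 1 and 6, then 6 and 0. Cytochrome oxidase assembly had 4 and 0, then 2 and 1, and biogenesis 1 and 5, then 2 and 0. The carriers had 0 and 5, then 3 and 0, and the ribosomal genes 9 and 19, then 18 and 3. Shares of all genes tested were 22.5% and 23.0%, then 20.6% and 16.1%.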

How the data were processed

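The authors measured RNA from 7 groups of 3 samples on Affymetrix arrays and, per the submitters' processing notes, made the values with MAS5 in Affymetrix Expression Console 1.2. The deposited table holds these MAS5 intensity values for 45101 probe sets in 21 columns, on a linear scale of 0.0638 to 49770, each column with a 2% trimmed mean of 500. Genes were named through GEO's platform annotation: 34958 probe sets had 1 symbol, 932 had several and 9211 are unnamed here. From these values log2(signal + 15) was computed, 15 being about the 20th percentile, and genes above the table's median of 80.6 in at least 3 arrays were tested (12169 of 18194). Fold changes are on that scale, which understates changes of low genes. Models were fitted with limma 3.58.1 in R 4.3.3 (lmFit, then eBayes with a trend) over all 21 arrays with 14 residual degrees of freedom, and p-values were adjusted over all genes tested by Benjamini-Hochberg. The script was tested on simulated data. Of the 90 genes, 21 are represented by a probe set of the classes that can match other transcripts. Tables and figures used Python 3.11.15, pandas 2.3.3 and matplotlib 3.10.9.

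In each of 6 main comparisons the text names up to 6 called genes in each direction whose arrays do not overlap between groups (3 in the 2 secondary comparisons), the 2 genes with the largest F of each complex, all Sdh genes and the paired isoforms. Other genes come from fixed pathway lists, the 2 called genes with the largest change of a list. Uqcrh, Ndufa1, Ndufc1 and Ndufs7 fall outside this rule and were named after their values were seen. Cyc1 is named as a list member only. The genes and lists were chosen with earlier results of these data known. Same-numbered arrays deviated together in all 3 pairs (r above 0.1) in the comparison of the 168 h groups alone, with r of 0.30, 0.28 and 0.18, so the replicate block is given there. The labels do not say how many animals an array holds, so p-values measure the spread between these samples, which may in part be technical. Alternatives changed the pseudocount, the scaling, the filter, the probe set rule, the model and the arrays used.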

Additional observations from a re-analysis of the deposited data

How the results depend on the processing

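Of the counts and medians relative to all genes, 415 values stayed within their limits and 52 moved. Medians relative to all genes could not move under the common array median, which shifts all genes of a comparison alike. Counts below are given without the shares of all genes tested, which can change with the setting as well. A count that moved is therefore not read as a result about the respiratory chain genes. With a common array median the median change of the chain's genes turned, to 0.21 at 4 h against bone marrow (-0.16 as deposited) and to -0.14 at 18 h against 4 h (0.15 as deposited), and genes called higher and lower were 19 and 5 at 4 h against bone marrow, 6 and 14 at 18 h against 4 h, 2 higher in resident against bone marrow cells, and 1 higher in Ly-6B+ against resident cells. Under that scaling Cox5b, Sdha and Uqcrfs1 changed by 0.049, 0.028 and 0.12 at 4 h against bone marrow, and Atp5pb by -0.29 at 18 h against 4 h. With quantile normalization, 5 were higher at 4 h against bone marrow, with a median of -0.27 relative to all genes, and 4 were lower at 18 h against 4 h. With the mean of probe sets, 8 were higher in resident against bone marrow cells and 1, Ndufs4, in Ly-6B+ against Ly-6B- cells, while Sdha changed by 0.41 in resident against bone marrow cells and Uqcrq by 0.037 at 72 h against 18 h. Without probe sets that can match other transcripts, 2 were higher at 4 h against bone marrow. With the replicate block, 11 were higher in resident against bone marrow cells, 3 at 4 h against bone marrow and 8 at 72 h against 18 h, and 5 were lower at 18 h against 4 h, 1 in Ly-6B+ against Ly-6B- cells and 6 in Ly-6B+ against resident cells. The labels do not say what a replicate number shares. Outside the comparison of the 168 h groups, r was not above 0.1 in all 3 same-numbered pairs. With the Gapdh ratio as a covariate the median relative to all genes at 18 h against 4 h was -0.12, against 0.02 without it, 1 was higher at 4 h against bone marrow, 10 were higher and 5 lower at 18 h against 4 h, 5 and 5 at 72 h against 18 h, and 1 and 1 in Ly-6B+ against resident cells. With only the arrays compared, 7 were higher in resident against bone marrow cells, 1 at 4 h against bone marrow, and 1 higher and 1 lower in Ly-6B+ against resident cells. With no filter, and with no trend, 1 was lower at 18 h against 4 h and 1 higher in Ly-6B+ against resident cells. Without the 3 arrays that stood apart, chosen after seeing the data, 1 was lower at 18 h against 4 h and 5 at 72 h against 18 h. Without both 168 h arrays numbered 1, also chosen after seeing the data, 0 were higher in Ly-6B+ against resident cells. Leaving out 1 array gave 1 to 4 higher in resident against bone marrow cells, 10 to 20 lower at 4 h against bone marrow, 1 to 3 lower at 18 h against 4 h, 4 to 18 lower at 72 h against 18 h, and 0 to 2 higher and 0 to 1 lower in Ly-6B+ against resident cells. For single named genes, 127 values lost a call and 61 gained one. The cause was not tested. Genes near the floor, such as Cox6b2, have fold changes that depend on the pseudocount.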
